A study of Mus musculus with 8 samples.

Results

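The G1 cyclins and their kinases, *Ccnd1*, *Ccnd2*, *Ccnd3*, *Ccne1*, *Ccne2*, *Cdk2*, *Cdk4* and *Cdk6*, were followed in cultured mouse keratinocytes (KCs) at 1 and 3 weeks. These 8 genes were taken by name from the 41457 genes of the deposited tables, and all 8 had enough reads to be tested. The KCs came from the tail skin of adult, wildtype C57BL/6 mice, were kept untreated in a serum-free medium with 0.06 mM Ca++, and were split when nearly confluent. RNA of 4 samples after 1 week and of 4 samples after 3 weeks was sequenced, described in the labels as 4 independent experiments. The names of the deposited tables carry preparation numbers, in replicate order 46, 47, 49 and 90 for the 1-week samples and 46, 49, 57 and 90 for the 3-week samples. By these numbers, 3 preparations (46, 49 and 90) were sampled at both times. The comparison asks how the transcriptome of the same kind of KC differs between short and prolonged culture. Values are given in the order of replicates 1 to 4.

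D-type cyclins are made when growth factors act on a resting or newly divided cell. They bind CDK4 and CDK6, and these kinases begin the phosphorylation of the retinoblastoma protein and its relatives, the pocket proteins. E-type cyclins then bind CDK2, complete that phosphorylation and help to start DNA replication, and the released E2F factors raise the transcription of replication genes and of the E cyclins themselves. INK4 proteins block CDK4 and CDK6, and CIP/KIP proteins block CDK2 complexes. In epidermis, division is a property of the basal layer.

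Levels are given as RPKM, in which reads are divided by exon length and by sample depth. Exon length counts all annotated exons of a gene and can exceed its longest transcript, so that levels of different genes depend on it. Changes are log2 fold changes of the exon reads, 3 weeks over 1 week, from edgeR's quasi-likelihood test, with p-values adjusted by Benjamini-Hochberg over all 12590 tested genes and called below 0.05. The samples held between 13896807 and 20026084 exon reads. Replicate 3 at 3 weeks stood apart with 13.3% of its exon reads on mitochondrial genes, against 2.19% to 4.43% in the other 7 samples, and replicates 3 and 4 at 3 weeks lay at opposite ends of the second principal component, at 54.9 and -63.5. The 8 genes listed as markers of basal KCs all had reads, *Krt15* only at 0.591 to 2.47 RPKM. They summed to 14084 to 16854 RPKM at 1 week and 9130 to 10450 RPKM at 3 weeks, mostly from *Krt5* and *Krt14*. *Krt5* (6039 to 6384 RPKM at 1 week, 1938 to 2581 at 3 weeks), *Trp63* and *Itga6* were lower at 3 weeks without overlap. The groups overlapped for *Krt14*, *Krt15*, *Itgb4*, *Perp* and *Sfn*. The sum included *Perp* at 835 to 1198 RPKM and *Sfn* at 478 to 1505 RPKM. Whether these 2 genes are specific to basal KCs was not tested. The part of this marker shift in the values below was not tested. Suprabasal markers summed to at most 26.7 RPKM, melanocyte markers to at most 20.9, fibroblast markers to at most 4.65, leukocyte markers to at most 1.62 and endothelial markers to at most 0.559, and *Cd207* of Langerhans cells was at 0 in every sample. In bulk RNA, fewer cells of a type and less RNA per cell cannot be told apart.

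Of the 8 genes, *Ccnd1*, *Ccne2* and *Cdk2* fell, *Ccnd3* rose, and *Ccnd2*, *Ccne1*, *Cdk4* and *Cdk6* did not pass the test. The 4 calls among 8 genes stand beside a background of 32.8% of all tested genes called, with 17% lower and 15.7% higher. In RPKM, 4 of the 8 genes were lower at 3 weeks without overlap of the groups, beside 26.2% of all tested genes. The median log2 fold change of the 8 genes was -0.24, and that of all tested genes was 0.03. RPKM values carry no correction for library composition, and on the log2(RPKM + 0.1) scale the median of all tested genes was -0.16, so that a fall read from RPKM appears larger by about that shift.

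**Figure D1:**
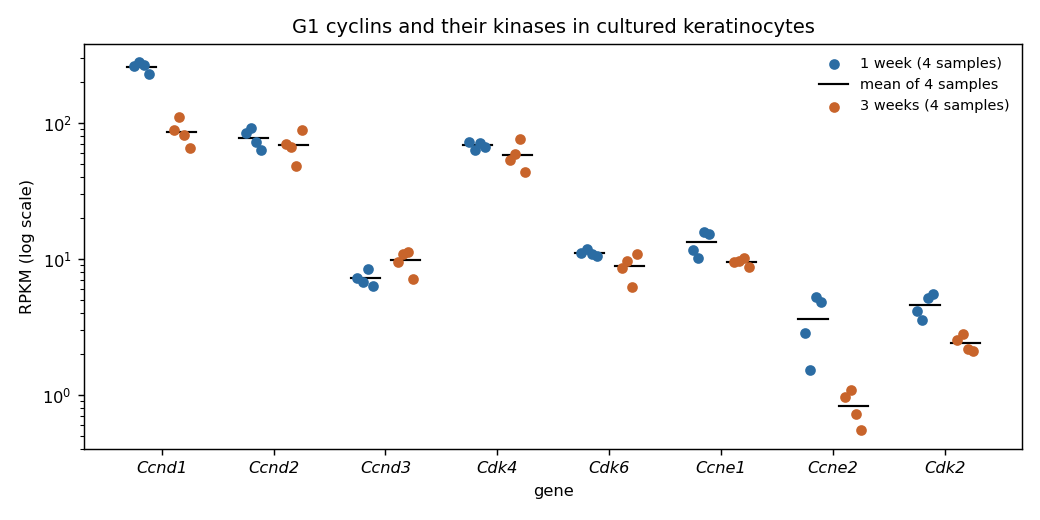
RPKM of the 8 genes on a log scale, with 1 point per sample and a bar at the mean of 4 samples. The 3-week points of Ccnd1, Ccne1, Ccne2 and Cdk2 lie below all their 1-week points, and those of the other genes overlap.

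*Ccnd1* (chromosome 7 of GRCm38, 144929931 to 144939925, minus strand) encodes cyclin D1, the D-type cyclin most often tied to mitogen signalling in epithelia. In RPKM, the 1-week samples had 261, 279, 268 and 230 and the 3-week samples 88.1, 109.6, 81.9 and 64.8. Every 3-week sample lay well below every 1-week sample. *Ccnd1* fell by 1.42 on the log2 scale (standard error 0.18, edgeR adjusted p = 0.000712). By mean RPKM, *Ccnd1* took place 202 among all genes at 1 week and place 583 at 3 weeks, and at both times it had the highest mean of the 8 genes. Of its reads 60.9% mapped to 1 place and the rest to several, and unique reads alone gave -1.58. The gene overlaps *LTO1* on the opposite strand, which had 191 to 336 reads per sample at 1 week and 417 to 552 at 3 weeks.

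*Ccnd2* (chromosome 6, 127125162 to 127152193, minus strand) encodes cyclin D2. It was measured at 84.6, 92.1, 71.9 and 63.0 RPKM in the 1-week samples and at 69.7, 65.9, 48.1 and 89.2 in the 3-week samples. The groups overlapped, with the lowest and the second highest of all 8 values in replicates 3 and 4 of the 3-week samples. The log2 fold change was -0.04, with a 95% interval from -0.46 to 0.38 (edgeR adjusted p = 0.890). Without replicate 3 at 3 weeks it was 0.0397, and without replicate 2 at 1 week it was 0.0361. A change as large as that of *Ccnd1* lies outside this interval.

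*Ccnd3* (chromosome 17, 47505051 to 47599691, plus strand) encodes cyclin D3 and was the only one of the 8 genes that rose. Samples after 1 week had 7.25, 6.76, 8.45 and 6.28 RPKM and samples after 3 weeks 9.52, 10.9, 11.3 and 7.15. In 3 of the 4 samples at 3 weeks it was above every 1-week sample, and replicate 4 lay within the 1-week range. *Ccnd3* rose by 0.61 on the log2 scale (standard error 0.19, edgeR adjusted p = 0.0348). This call was lost when any of 6 samples was left out. Its edgeR adjusted p was then 0.0724, 0.0896 and 0.0968 without replicates 1, 2 and 4 at 1 week, and 0.0618, 0.0867 and 0.0687 without replicates 1, 2 and 3 at 3 weeks. It was 0.00505 without replicate 4 at 3 weeks. The log2 fold change was 0.45 without replicate 3 at 3 weeks, the sample rich in mitochondrial reads. With only the 3 preparations found at both times and the preparation as a block, it was 0.39 and not called (edgeR adjusted p = 0.113). The gene overlaps by 361 bases with *Bysl* on the opposite strand, which had 1122 to 1495 reads per sample at 1 week and 537 to 843 at 3 weeks.

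Summed over the 3 D-type cyclins, the level went from 344.3 ± 32.9 RPKM after 1 week to 164 ± 18.6 RPKM after 3 weeks (SD, n = 4). *Ccnd1* made up 75.4% ± 1.71 of this sum at 1 week and 52.4% ± 8.58 at 3 weeks. The share of *Ccnd2* was 22.5% ± 1.92 at 1 week and 41.6% ± 9.76 at 3 weeks, and that of *Ccnd3* was 2.09% ± 0.261 and 5.99% ± 1.48. In replicate 4 at 3 weeks *Ccnd2* was the larger part, with 55.4% of the sum against 40.2% for *Ccnd1*. In the other 7 samples *Ccnd1* was. These shares rest on exon lengths of 4709, 9409 and 8775 bases for *Ccnd1*, *Ccnd2* and *Ccnd3*. Their longest coding transcripts in GENCODE M21 have 3740, 6330 and 2113 bases, and the gap was widest for *Ccnd3*. Shares by transcript length were not computed.

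**Figure D2:**
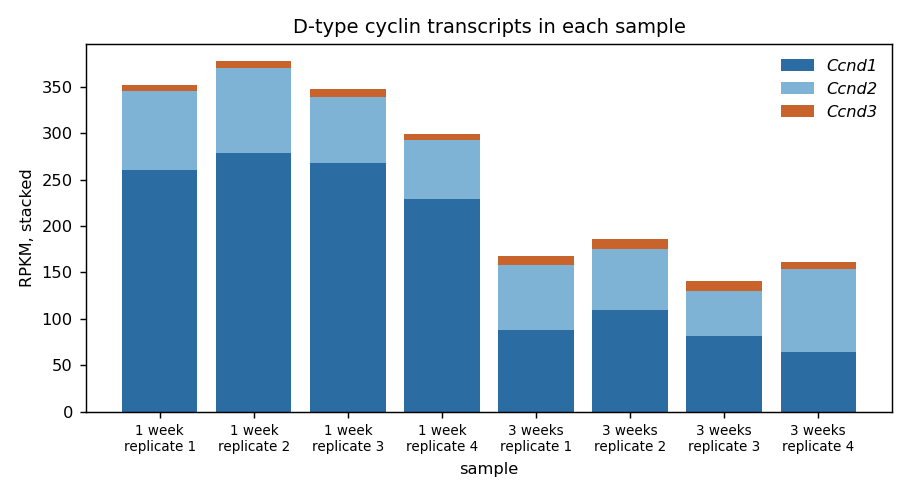
RPKM of Ccnd1, Ccnd2 and Ccnd3 stacked for each of the 8 samples. The stacks reach 299 to 378 RPKM at 1 week and 141 to 186 RPKM at 3 weeks, and the Ccnd1 part shrinks most.

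Ratios within a sample do not depend on how samples are scaled, and for 6 pairs of genes the mean log2 ratios of the groups were tested by exact permutation (two-sided), whose smallest possible p is 0.0286. The ratio of *Ccnd2* to *Ccnd1* was 0.324, 0.330, 0.269 and 0.275 at 1 week and 0.792, 0.601, 0.587 and 1.38 at 3 weeks. All 3-week values lay above all 1-week values, and the mean log2 ratio differed by 1.40 (exact p = 0.0286, adjusted over the 6 pairs 0.0429). For *Ccnd3* to *Ccnd1* the mean log2 ratio differed by 2.03, again with no overlap (exact p = 0.0286, adjusted 0.0429). *Ccnd3* to *Ccnd2* differed by 0.63 with overlapping groups (exact p = 0.143, adjusted 0.171). Cyclin D1 transcripts thus changed by another amount than those of each of its relatives, whereas a difference between the relatives was not detected with 4 samples per group.

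*Ccne1* (chromosome 7, 38097984 to 38107534, minus strand) encodes cyclin E1. The 1-week samples held 11.6, 10.1, 15.8 and 15.1 RPKM and the 3-week samples 9.45, 9.65, 10.1 and 8.75 RPKM. The groups did not overlap in RPKM, but replicate 2 at 1 week and replicate 3 at 3 weeks were nearly level. In edgeR the log2 fold change was -0.30, with a 95% interval from -0.70 to 0.09 (adjusted p = 0.216), so that *Ccne1* did not pass the test. No annotated gene overlaps it and all of its reads mapped to 1 place.

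*Ccne2* (chromosome 4, 11191351 to 11204779, plus strand) encodes cyclin E2 and had the lowest mean of the 8 genes at both times. At 1 week the samples showed 2.86, 1.51, 5.26 and 4.80 RPKM, and at 3 weeks 0.967, 1.08, 0.714 and 0.545. The 1-week samples differed among themselves by more than those of any other of the 8 genes, with a coefficient of variation of 48.3%, and all of them were above the 3-week samples. *Ccne2* fell by 1.96 on the log2 scale (standard error 0.40, edgeR adjusted p = 0.00617). These values rest on 109 to 296 exon reads per sample at 1 week and 28 to 63 at 3 weeks, and 38.7% of all its reads mapped to 1 place. With unique reads the log2 fold change was -2.49. *Ccne2* also overlaps by 5622 bases with *Ints8* on the opposite strand, which had 936 to 1181 reads per sample at 1 week and 553 to 918 at 3 weeks. The part of *Ints8* reads in the *Ccne2* values was not tested.

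The ratio of *Ccne2* to *Ccne1* was 0.246, 0.149, 0.332 and 0.318 at 1 week and 0.102, 0.112, 0.0705 and 0.0624 at 3 weeks. The groups did not overlap, and the mean log2 ratio differed by -1.57 (exact p = 0.0286, adjusted 0.0429). *Ccne2* gave 20.4% ± 5.47 of the summed E cyclin RPKM at 1 week and 7.95% ± 2.04 at 3 weeks (SD, n = 4). This share, too, depends on the exon lengths that RPKM uses.

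*Cdk4* (chromosome 10, 127063534 to 127067920, plus strand) encodes a partner kinase of the D cyclins. In the 1-week samples it stood at 72.4, 63.5, 71.7 and 66.2 RPKM, and in the 3-week samples at 53.7, 58.7, 76.6 and 43.3. The 3-week samples spread on both sides of the 1-week samples, with replicate 3 above and the others below all of them. The log2 fold change was -0.05, with a 95% interval from -0.52 to 0.41 (edgeR adjusted p = 0.866). It was -0.31 without replicate 3 at 3 weeks, 0.0827 without replicate 4 at 3 weeks and 0.00055 without replicate 1 at 3 weeks. *Cdk4* overlaps by 641 bases with *Tspan31* on the opposite strand, which had 69.6% as many reads.

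*Cdk2* (chromosome 10, 128697939 to 128705031, minus strand) encodes the kinase that E and A cyclins activate. KCs cultured for 1 week had 4.12, 3.53, 5.14 and 5.53 RPKM of *Cdk2*, and KCs cultured for 3 weeks had 2.52, 2.81, 2.17 and 2.09. All 3-week samples were below all 1-week samples. *Cdk2* fell by 0.77 on the log2 scale (standard error 0.18, edgeR adjusted p = 0.0107). Within the 3 shared preparations the log2 fold change was -0.92 (edgeR adjusted p = 0.0259). *Cdk2* overlaps by 837 bases with the melanocyte gene *Pmel* on the opposite strand, which had 59, 59, 144 and 258 reads at 1 week and 15, 38, 20 and 33 at 3 weeks, where *Cdk2* had 452 to 607 and 191 to 292. The summed melanocyte markers were 3.18 to 20.9 RPKM at 1 week and 1.26 to 5.50 at 3 weeks, and their part in the *Cdk2* values was not tested. Reads across splice junctions, an alternative count added after the values had been seen, gave a log2 fold change of -0.97 for *Cdk2* (edgeR adjusted p = 0.00768).

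Within samples, *Cdk2* to *Cdk4* was lower at 3 weeks without overlap, with a mean log2 ratio that differed by -0.66 (exact p = 0.0286, adjusted 0.0429). The ratio was 0.0569, 0.0556, 0.0717 and 0.0835 at 1 week and 0.0469, 0.0478, 0.0284 and 0.0483 at 3 weeks. *Cdk6* to *Cdk4* differed by -0.09 with overlapping groups (exact p = 0.857, adjusted 0.857).

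*Cdk4* and *Cdk2* were picked for a view of their promoter sequence after their values were seen. The 250 bases before their start sites are shown (RefSeq, GRCm38.p6, each read in the direction of transcription). They lie at chr10:127063285-127063534 on the plus strand and at chr10:128705052-128705301 on the minus strand. Capitals mark CACGTG, the E-box that MYC and related factors bind, and GGCGGGA, an E2F-type motif, each searched on both strands. Only these exact letters were searched, so that other forms of either motif are neither marked nor counted.
Cdk4: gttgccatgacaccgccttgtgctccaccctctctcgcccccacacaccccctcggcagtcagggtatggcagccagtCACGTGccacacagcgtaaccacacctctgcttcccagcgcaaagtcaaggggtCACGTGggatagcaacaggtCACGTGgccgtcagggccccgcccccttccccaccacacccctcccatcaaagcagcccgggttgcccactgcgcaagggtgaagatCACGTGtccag
Cdk2: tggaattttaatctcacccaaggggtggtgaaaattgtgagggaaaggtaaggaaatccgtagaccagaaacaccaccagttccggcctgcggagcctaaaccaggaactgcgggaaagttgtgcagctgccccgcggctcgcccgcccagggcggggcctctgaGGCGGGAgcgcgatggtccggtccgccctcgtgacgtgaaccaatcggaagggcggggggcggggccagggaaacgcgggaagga
The *Cdk4* sequence holds 4 E-boxes and no E2F-type motif, whereas the *Cdk2* sequence holds 1 E2F-type motif and no E-box. Of all 32851 promoter sequences of this length, 6.02% hold an E-box, 7 sequences hold 4 or more, and 9.75% hold the E2F-type motif. *Cdk6* has 1 E-box and *Ccne1* 1 E2F-type motif, and neither sequence of *Ccnd3* has any. Sequences were matched for 5 of the 8 genes, not for *Ccnd1*, *Ccnd2* and *Ccne2*. These matches are descriptions of letters, not of bound sites, and their part in the changes of these genes was not tested.

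*Cdk6* (chromosome 5, 3341485 to 3531008, plus strand) encodes the other D cyclin kinase. Its level was 11.1, 11.8, 10.9 and 10.5 RPKM in the samples of 1 week and 8.61, 9.70, 6.18 and 10.9 in those of 3 weeks. Replicate 4 at 3 weeks lay within the 1-week range, and the other 3 samples lay below it. The log2 fold change was -0.17, with a 95% interval from -0.49 to 0.14 (edgeR adjusted p = 0.373).

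The reads on *Cdk6* changed in kind, which was chosen for description after its values were seen. Of its exon reads, 6.49%, 6.08%, 5.94% and 5.62% crossed a splice junction at 1 week and 3.52%, 2.60%, 2.61% and 3.31% at 3 weeks. The groups lay far apart, with means of 6.03% and 3.01%. In reads, 130 to 207 junction reads per sample were counted at 1 week and 37 to 79 at 3 weeks. Among the 9358 genes with enough junction reads, 5.65% had a lower share at 3 weeks without overlap of the groups, and only 3 had a larger fall of the mean share than *Cdk6*. Over all genes, 24.7% to 25.2% of exon reads crossed junctions at 1 week and 22.0% to 23.6% at 3 weeks, and the median gene differed by -0.03 on the log2 scale. Replicate 3 at 3 weeks had the lowest share over all genes. When junction reads alone were tested, *Cdk6* had a log2 fold change of -1.13 (edgeR adjusted p = 0.00433). The longest *Cdk6* transcript of GENCODE M21 has 11525 bases, of which 10220 (88.7%) are 3′ untranslated and 978 code for protein. Intron reads numbered 82 at 1 week and 89 at 3 weeks over all samples. The part of the general shift in junction reads in the *Cdk6* value was not tested.

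**Figure D3:**
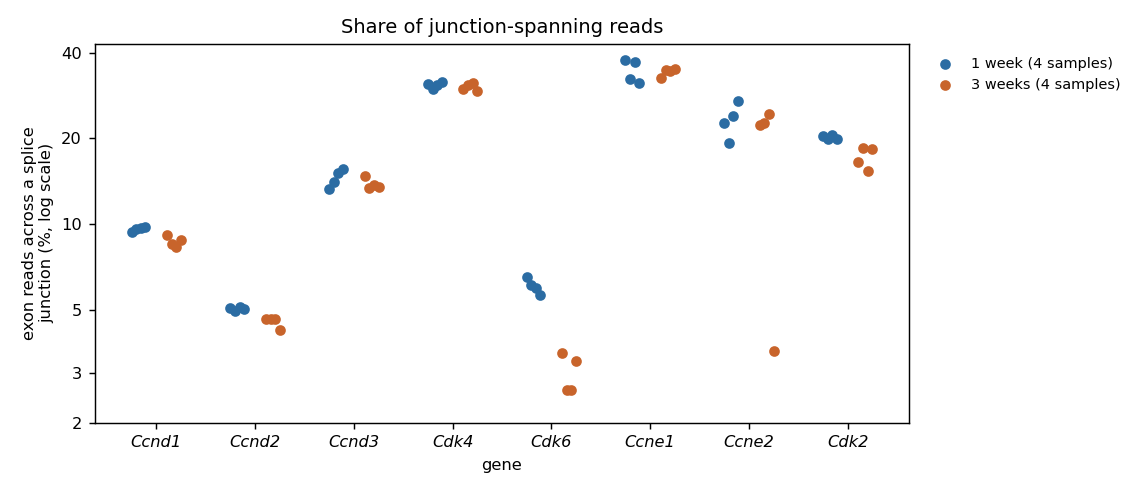
Percentage of the exon reads of each gene that cross a splice junction, on a log scale, with 1 point per sample. Cdk6 falls from a mean of 6.03% to 3.01%, and the low 3-week point of Ccne2 is a sample with 28 exon reads.

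*Ccnd1*, *Ccnd2* and *Cdk2* also had lower junction shares at 3 weeks without overlap, but with smaller differences. The mean share was 9.60% and 8.70% for *Ccnd1*, 5.03% and 4.54% for *Ccnd2*, and 20.2% and 17.1% for *Cdk2*. In *Ccnd3*, *Ccne1*, *Ccne2* and *Cdk4* the groups overlapped. Tested by junction reads, *Ccnd1* had a log2 fold change of -1.54 and *Ccne2* of -2.18, close to those from all exon reads, and both stayed called.

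**Figure D4:**
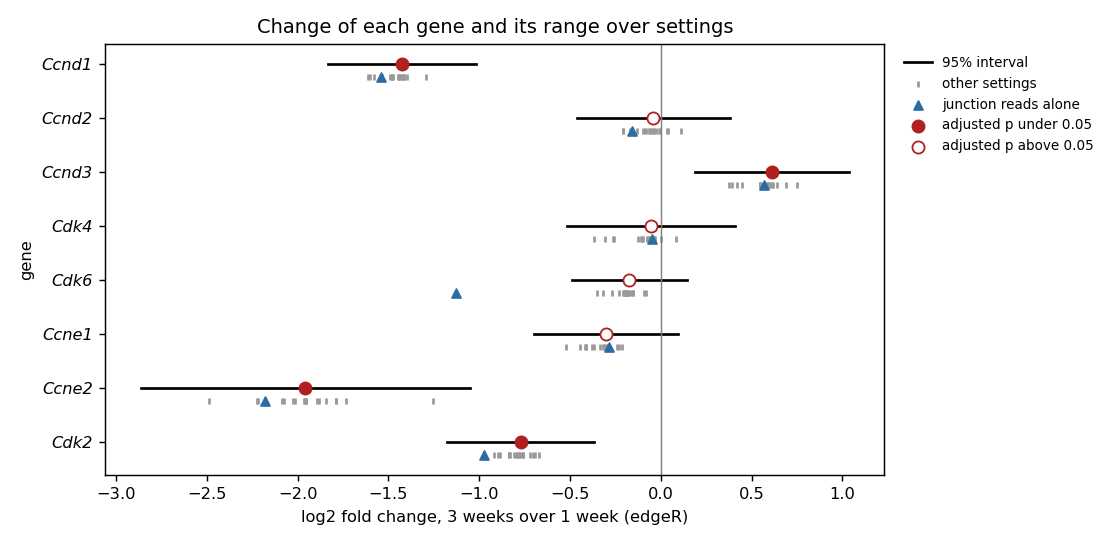
Log2 fold change of each gene (edgeR, circle) with its 95% interval, with the values from 18 other settings, among them DESeq2, limma and samples left out, as ticks and that from junction reads as a triangle. Ccnd1, Ccne2 and Cdk2 stay below 0 and Ccnd3 above 0 in every setting, and the triangle of Cdk6 at -1.13 lies far from its circle at -0.17.

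By mean RPKM the order at 1 week was *Ccnd1*, *Ccnd2*, *Cdk4*, *Ccne1*, *Cdk6*, *Ccnd3*, *Cdk2* and *Ccne2*. The ranges of *Ccnd2* and *Cdk4*, of *Ccne1* and *Cdk6*, and of *Cdk2* and *Ccne2* overlapped. At 3 weeks *Ccnd3* stood in the fourth place, ahead of *Ccne1* and *Cdk6*, and the rest of the order was the same. Here the ranges of *Ccnd1*, *Ccnd2* and *Cdk4* all overlapped among themselves, and so did those of *Ccnd3*, *Ccne1* and *Cdk6*. The level of *Ccnd1* at 1 week was thus set apart from all others, and at 3 weeks it was not. These places depend on the exon length that RPKM uses. It was 8775 bases for *Ccnd3*, 2662 for *Ccne1* and 13989 for *Cdk6*. Their longest coding transcripts in GENCODE M21 have 2113, 2000 and 11525 bases. An order by transcript length was not computed.

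For each gene the 3 genes with the most similar profile over the 8 samples were found among 8569 genes, by the root mean square difference of centred log2 CPM values. *Ccne2* was most like *Mcm4*, a subunit of the replicative helicase, *Ccnf* and *Endou*, with differences of 0.26, 0.27 and 0.28. *Cdk2* was most like *Tubg1*, *Rpa1* and *Stag1*, which encode γ-tubulin, a single-strand DNA binding protein and a cohesin subunit, with differences of 0.08, 0.09 and 0.10. *Ccnd1* was most like *Dhodh*, *Fkbp4* and the basal keratin gene *Krt5*, with 0.11, 0.14 and 0.15. The nearest genes were *Fbxo38*, *Tor3a* and *Gid4* for *Ccnd2*, *Scoc*, *Arpc5* and *St7l* for *Ccnd3*, *Tpst1*, *Echdc1* and *Zw10* for *Ccne1*, *Commd2*, *Tomm22* and *Psmd13* for *Cdk4*, and *Gmip*, *Wdr59* and *Rbms1* for *Cdk6*, all with differences between 0.04 and 0.10.

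Among the 7 CDK inhibitor genes, *Cdkn2a*, *Cdkn2b* and *Cdkn1a* rose, with log2 fold changes of 3.33, 1.70 and 0.87, and *Cdkn2c* fell by 2.70. These calls stand beside 32.8% of all tested genes called. *Cdkn2d*, *Cdkn1b* and *Cdkn1c* had values of -0.17, -0.27 and -0.06 and did not pass the test. Set against their targets, the summed RPKM of the 4 INK4 genes was 0.960 ± 0.226 per RPKM of *Cdk4* and *Cdk6* at 1 week and 5.04 ± 1.5 at 3 weeks (SD, n = 4), and the summed D cyclins were 4.34 ± 0.475 and 2.52 ± 0.558 per RPKM of the kinases. The *Cdkn2a* value is that of the whole gene, which also encodes ARF. The values of *Cdk4* and *Cdk6* entered both ratios, and their sum was 79.5 ± 4.11 RPKM at 1 week and 66.9 ± 12.1 at 3 weeks. Both ratios also depend on the exon length of each gene.

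Over all tested genes, 32.8% were called, 17% lower and 15.7% higher. Of 13 pocket protein and E2F/DP genes, *E2f3* passed the test with a log2 fold change of 0.42 (edgeR adjusted p = 0.0482, groups overlapping in RPKM), and 4 fell. The *E2f3* call was lost in 15 of 19 alternatives, among them the omission of any 1-week sample or of replicate 1 or 2 at 3 weeks. The 4 that fell were *Rbl1*, which encodes the pocket protein p107, the repressors *E2f7* and *E2f8*, and the E2F partner *Tfdp1*, with -1.98, -2.78, -3.16 and -0.89. *Rb1* had a log2 fold change of 0.34 and *E2f1* of -0.11, neither called. All 14 E2F target genes of the G1/S transition fell, with a median of -2.62, from -1.36 for *Pcna* to -3.37 for *Mcm6*. Of these, only *Tyms* lost its call in any alternative, without replicate 3 or 4 at 1 week, without replicate 1 or 2 at 3 weeks and with the replicate block, with an edgeR adjusted p of at most 0.0790. The S and M phase cyclins *Ccna2*, *Ccnb1*, *Ccnb2* and *Ccnf* and the kinase gene *Cdk1* all fell as well, with a median of -3.26. Their log2 fold changes ran from -3.90 to -1.98, beside -1.96 for *Ccne2*, -1.42 for *Ccnd1* and -0.77 for *Cdk2*, and differences between these genes were not tested.

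Among the 6 genes of the CDK-activating kinase and the CDC25 phosphatases, *Ccnh*, *Cdc25b* and *Cdc25c* fell, with -0.61, -2.91 and -3.33, and none rose. *Ccnh* lost its call without replicate 2 at 1 week, without replicate 1 or 2 at 3 weeks and with the replicate block, with an edgeR adjusted p of at most 0.0659. Of 12 genes for the turnover of G1 cyclins and p27, *Skp2* and *Fbxo31*, which encode F-box proteins, fell, with -1.32 and -0.88. This is no larger a share than the 17% of all tested genes called lower. Without replicate 3 at 3 weeks this list had 1 gene higher and 3 lower, and without replicate 4 at 3 weeks 4 lower. Of 13 upstream inducers of D cyclins, *Myc* fell, with -1.05, and *Jund* and *Ctnnb1* rose, with 0.63 and 0.54. The share called in this list was below the 32.8% of all tested genes. *Jund* lost its call in 4 alternatives, both limma fits on RPKM, the replicate block and the omission of replicate 1 at 1 week (adjusted p of at most 0.0753). *Ctnnb1* lost it in 3, both blocked fits and the omission of replicate 2 at 1 week (edgeR adjusted p of at most 0.145). The cyclins and CDKs of transcription, a list of the same kind of protein with other tasks, had 0 of 12 genes called by edgeR, with 0 at an unadjusted p under 0.05, 0 by DESeq2 and 1 by limma on log2 RPKM values. Without replicate 4 at 3 weeks 1 gene of that list was called higher by edgeR.

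**Figure D5:**
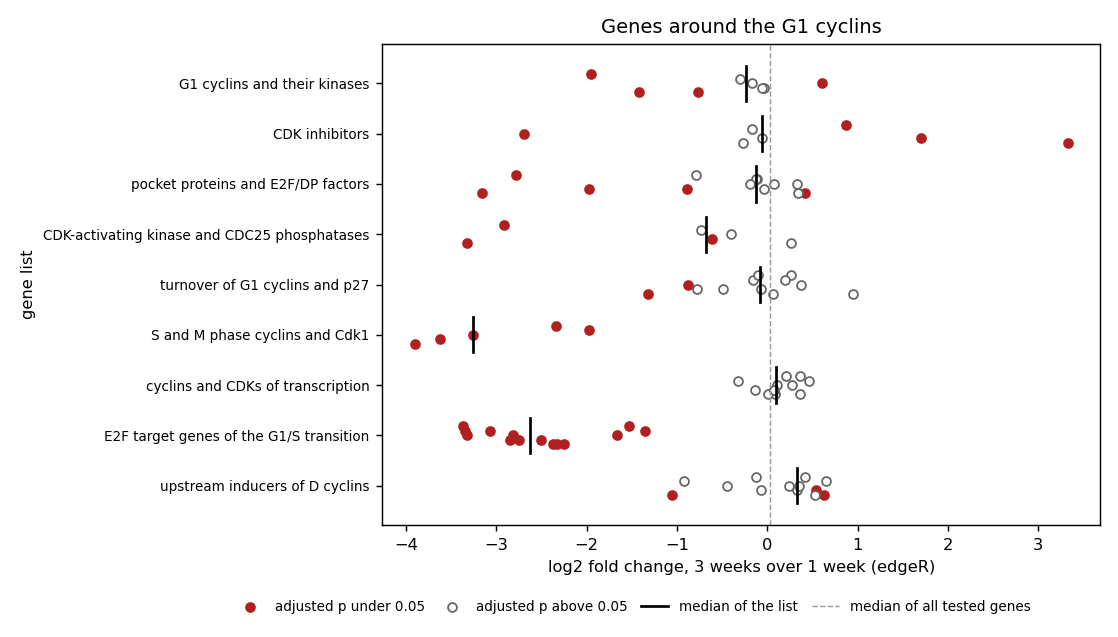
Log2 fold change (edgeR, 3 weeks over 1 week) of every gene of the 8 pathway lists and of the G1 cyclins and their kinases, filled where the adjusted p was under 0.05, with the median of each list as a bar. The lists of E2F targets and of S and M phase cyclins lie below 0 with medians of -2.62 and -3.26, and the G1 genes spread on both sides with a median of -0.24.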

How the data were processed

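Poly(A) RNA of 8 cultured KC samples was sequenced. The authors trimmed adapters, aligned reads to GRCm38 in the CLC Genomics Workbench (version 12, default settings) and deposited a whole-number count of reads per gene without normalization, on exons, introns and junctions. The authors also deposited RPKM values, written with decimal commas and read here as numbers. Strand use and annotation release are not given in the sources used here. Samples were grouped by the labelled weeks in culture, and the exon reads entered an unpaired fit with edgeR 4.0.16 under R 4.3.3 (filterByExpr, TMM, glmQLFit, glmQLFTest). Ratios of RPKM values were tested by exact permutation with scipy 1.17.1. On simulated counts of 12459 genes, of which 200 were changed, the fit recovered 81 of 100 changes of 4-fold and 40 of 100 of 2-fold. It made 4 false calls. A much larger share of genes was called in the data, so that these rates do not give the power behind the reported calls.

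The text names the 8 genes, the genes of 8 pathway lists and, for each of the 8 genes, the 3 with the nearest profile among genes of at least 10 CPM. Members and lists were chosen with earlier results of these data known. Alternatives were DESeq2 1.42.0, upper-quartile scaling, no filter, every read on the gene, unique reads, limma 3.58.1 on log2(RPKM + 0.1) and log2(RPKM + 1), replicate and preparation blocks and the omission of each sample. The removal of mitochondrial genes and the use of junction reads were chosen after seeing the data. Preparation numbers were read from the names of the deposited tables. Every sample differed from its replicates by more than sampling noise, with a chi-square per degree of freedom of at least 15.5. TPM values were not used.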

Additional observations from a re-analysis of the deposited data

Results flagged for a closer look

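In groups of 4 samples, 216 groups of values were searched for a sample far from the others, and 10 were found, where chance gives about 1 in 20 groups. Among the G1 genes, the log2 ratio of *Cdk2* to *Cdk4* in replicate 3 at 3 weeks was -5.14, below -4.41 to -4.37 in the other samples of its group. Replicate 4 at 3 weeks had a junction share of 4.25% for *Ccnd2*, against 4.63% to 4.64%, and of 3.57% for *Ccne2*, against 22.2% to 24.4%, the latter from 1 of 28 reads. Replicate 3 at 3 weeks stood out by 13.26% mitochondrial reads and by a low *Ccnk* level of 8.77 RPKM. In replicate 4 at 3 weeks, *Ccnb2* at 1.73 RPKM and *Mcm5* at 1.21 RPKM were lower and *Ccnl2* at 7.65 RPKM was higher than in its group. At 1 week, *Cdkn1b* was high in replicate 4, at 6.72 RPKM, and *Cul3* low in replicate 1, at 22.2 RPKM. Of these 10 values, 8 lay in replicates 3 and 4 at 3 weeks.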

How the results depend on the processing

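*Ccnd1* and *Ccne2* stayed called in all 19 alternatives, between -1.61 and -1.29 and between -2.49 and -1.26 on the log2 scale. *Cdk2* lost its call only with the replicate block, at -0.76 (edgeR adjusted p = 0.0523). Same-numbered samples share a preparation number only as replicates 1 and 4. The replicate numbers were not taken as pairs. The deviations of same-numbered samples correlated at -0.23, -0.15, -0.15 and 0.25, which does not decide how the samples were paired. Those of samples that share a preparation number correlated at -0.23 (46), 0.20 (49) and 0.25 (90). The main fit and the unpaired permutation tests treated these samples as independent, which the correlations do not test. The replicate block joins different preparations for replicates 2 and 3. It called 2867 genes in place of 4127. In the list upstream of D cyclins it called 1 gene in place of 3, and in the CDK-activating kinase and CDC25 list 2 in place of 3. *Ccnd3* lost its call with no filter (0.54), limma on log2(RPKM + 0.1) (0.42) and log2(RPKM + 1) (0.38), the shared preparations (0.39, edgeR adjusted p = 0.113) and junction reads (0.57), and lay between 0.45 and 0.75 with single samples left out. Values that were not called changed sign for *Ccnd2* with the shared preparations (0.11) and, with samples left out, between -0.17 and 0.0397, and for *Cdk4* between -0.31 and 0.0827. *Cdk6* was called only with junction reads (-1.13). DESeq2 and both limma fits called 5 genes of the CDK-activating kinase and CDC25 list in place of 3, DESeq2 called 4 turnover genes in place of 2, and both limma fits called 1 transcription cyclin or CDK in place of 0. With single samples left out, the turnover list had 2 to 4 and the transcription list 0 to 1. Limma on log2(RPKM + 0.1) called 1313 genes higher and 3089 lower, in place of 1981 and 2146. The 6 ratios kept their direction for all called pairs, given as values with no test when a sample was left out, and within same-numbered samples the smallest exact p that the replicate block allows is 0.125. No ratio was tested within the shared preparations. The cause of these differences was not tested. Depth limits *Ccne2* most, with 28 to 63 reads per sample at 3 weeks.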
